A study of Mus musculus with 6 samples.

Results

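Transcripts of 9 genes of the citrate cycle were followed in stimulated mouse macrophages with and without the DNA demethylase Tet2: Cs, Idh1, Idh2, Idh3a, Ogdh, Suclg1, Fh1, Mdh1 and Mdh2. They were chosen by gene symbol, for their place in the cycle that supplies 2-oxoglutarate, the cofactor of the TET enzymes, and each of the 9 had 1 feature among the 25206 on the array. The cells were peritoneal macrophages of C57BL/6J mice, drawn into the abdominal cavity by 1 mL of aged 4% Brewer's thioglycollate medium, an irritant broth, and collected 4 days later. One group of 3 cultures came from mice labelled Tet2-/-, called Tet2-deficient below, and the other group of 3 came from wild-type littermates. All 6 cultures had 10% FBS and received 10 ng/mL LPS, a cell wall component of Gram-negative bacteria, and 2 ng/mL IFNg, the cytokine interferon gamma, for 10 h, so every value describes stimulated cells. The sources used here do not give how the Tet2 allele was disrupted.

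The citrate cycle burns acetyl groups in mitochondria. Citrate synthase joins acetyl-CoA to oxaloacetate, and isocitrate dehydrogenases then make 2-oxoglutarate, which the 2-oxoglutarate dehydrogenase complex turns into succinyl-CoA. Succinate, fumarate and malate follow before oxaloacetate is made again. TET enzymes oxidise 5-methylcytosine with 2-oxoglutarate, oxygen and iron, and succinate and fumarate can inhibit them. In macrophages activated with LPS and interferon gamma, the cycle is known for the build-up of citrate, itaconate and succinate.

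Each culture gave 1 array of log2 expression values. Array medians lay between 3.47 and 3.66, and all 9 genes lay above the array median in every array. Adgre1 and Cd68, defining markers of macrophages, were at log2 levels of 10.0 to 10.7 in all 6 arrays. Markers of large resident peritoneal macrophages were higher in the Tet2-deficient arrays, with a mean log2 level over 9 genes of 6.11 to 6.68 against 5.10 to 5.54 and 4 of 9 past the threshold, all higher. Of the general macrophage markers, 2 of 7 rose. Markers of neutrophils (10 genes), B cells (5), T and NK cells (7), mast cells and eosinophils (9), dendritic cells (6) and mesothelium or fibroblasts (9) had 0 genes past the threshold in either direction. The mean level of the mesothelium or fibroblast list was 4.13 to 5.14 in Tet2-deficient and 4.04 to 4.50 in wild-type arrays. Below the array median in every array were all 9 genes of mast cells and eosinophils and 8 of 10 of neutrophils. The same held for 6 of 7 of T and NK cells, 4 of 6 of dendritic cells and 2 of 5 of B cells. It held for only 1 of 9 of mesothelium or fibroblasts. The median log2 change of this last list was 0.41, with 7 genes positive and 2 negative. Groups did not overlap for 1 of its 9 genes, Dcn. Dcn was at 5.02, 5.12 and 4.71 in wild-type and 6.18, 6.88 and 5.57 in Tet2-deficient arrays. The part of such cell mixtures in the values below was not tested, and in cultures of many cells fewer cells of a type and less RNA per cell cannot be told apart. Tet2 itself was at 5.25 to 5.75 in arrays of the Tet2-deficient group and at 5.07 to 5.40 in wild-type ones (adjusted p = 0.365). Where its probes lie relative to the disrupted part is unknown here, so the feature checks nothing about the labels.

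The comparison asked whether transcripts of the cycle differed between Tet2-deficient and wild-type macrophages under the stimulus. No member passed the threshold of an adjusted p of 0.05 in the limma fit over all features: 0 of 9 rose and 0 of 9 fell, where 0.952% of all features passed. Cs and Mdh2 lay above the wild-type range in all 3 Tet2-deficient arrays, Suclg1 and Mdh1 lay below it in all 3, and the other 5 overlapped. Groups that did not overlap were thus seen for 4 of 9 members (44.4%), where 22.0% of all features had such groups. By direction these were 2 higher, against 9.74% of all features, and 2 lower, against 12.2%. An unadjusted limma p under 0.05 was reached by 3 of 9 members, Suclg1, Mdh2 and Cs, against 16.0% of all features. The shares over all features include dim ones, whereas all 9 members lay above the array median. In a fit of the 12603 features above the median level only, 3204 features and 3 members had such a p. The median log2 change of the 9 was 0.04, beside -0.04 for all features. Each change below is the Tet2-deficient mean less the wild-type mean on the log2 scale, with the standard error (SE) of the fit and n = 3 arrays per group.

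**Figure D1:**
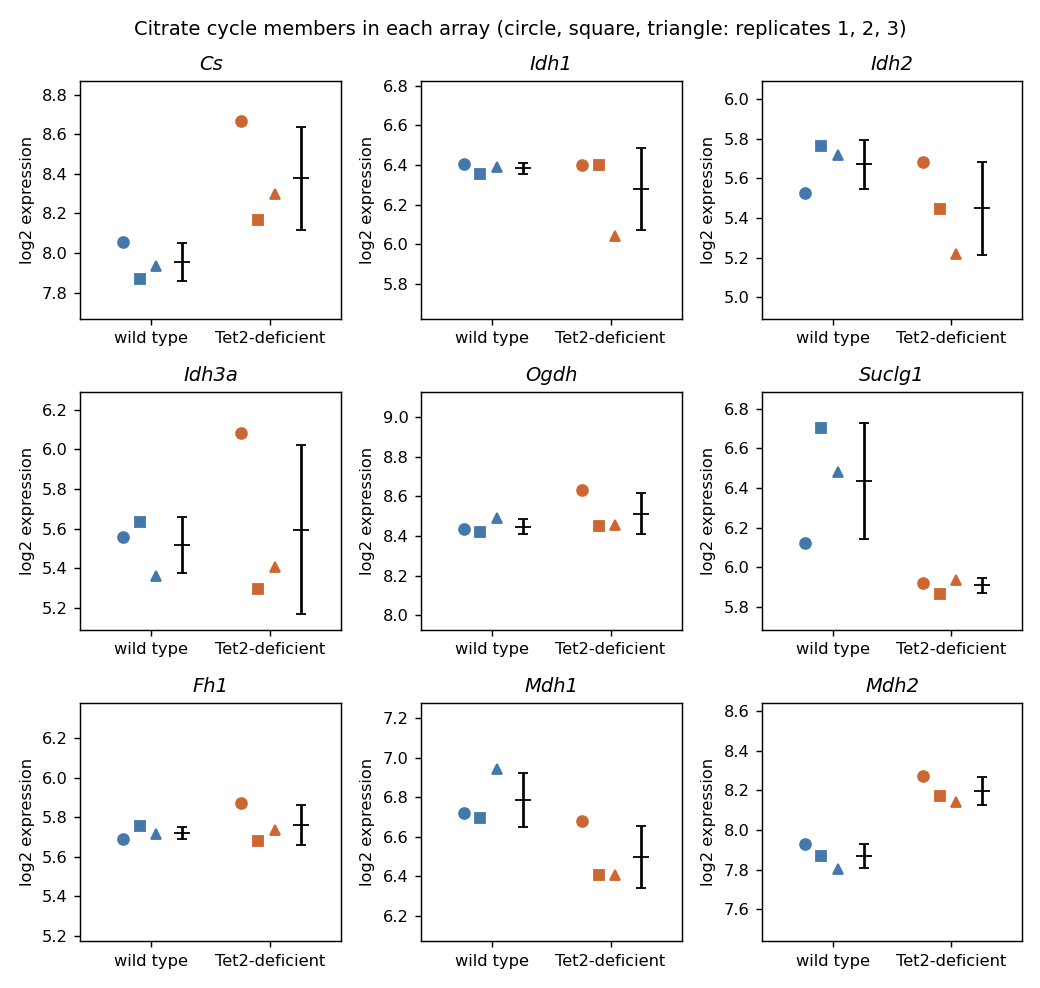
Log2 expression of the 9 members in each array, with circles, squares and triangles for replicates 1, 2 and 3 and black bars for the group mean ± SD (n = 3); each panel spans 1.2 log2 units and has its own position. Cs and Mdh2 are higher in all 3 Tet2-deficient arrays, Suclg1 and Mdh1 are lower in all 3, and the groups overlap for the other 5.

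Cs (Entrez gene 12974) encodes citrate synthase, the enzyme of entry into the cycle. Its log2 level was 8.06, 7.87 and 7.94 in wild-type replicates 1, 2 and 3 and 8.67, 8.17 and 8.30 in the Tet2-deficient ones. The groups did not overlap, but the Tet2-deficient arrays were spread (SD 0.26 against 0.10), with replicate 1 far above the other two. The log2 change was 0.42 ± 0.15 (SE), or 1.34-fold, with a 95% interval of 0.09 to 0.76 and an adjusted p = 0.208. Without Tet2-deficient replicate 1 it was 0.28, with an adjusted p = 0.426. Aconitase turns citrate into isocitrate. Its cytosolic form Aco1, which also regulates iron metabolism, was at 6.53, 6.19 and 6.44 in wild-type and 6.88, 6.79 and 6.87 in Tet2-deficient arrays. The groups were separate here too (log2 change 0.46 ± 0.13, adjusted p = 0.121, and 0.31 with a trend with gene span and level removed).

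Isocitrate dehydrogenases produce 2-oxoglutarate. The NADP-dependent enzyme of cytosol and peroxisomes is Idh1 (Entrez gene 15926), which was at 6.41, 6.35 and 6.39 in wild-type and 6.40, 6.40 and 6.04 in Tet2-deficient arrays. Only Tet2-deficient replicate 3 stood away from the others, and replicates 1 and 2 of that group held the same deposited value. The log2 change was -0.10 ± 0.13 (95% interval -0.40 to 0.20, adjusted p = 0.762), and without replicate 3 it was 0.01. Its mitochondrial NADP-dependent counterpart Idh2 (Entrez gene 269951) was at 5.53, 5.77 and 5.72 against 5.68, 5.44 and 5.22. The groups overlapped through wild-type replicate 1 and Tet2-deficient replicate 1, and the log2 change was -0.22 ± 0.15 (95% interval -0.55 to 0.11, adjusted p = 0.515). It was -0.34 without Tet2-deficient replicate 1 and -0.11 without replicate 3.

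The NAD-dependent enzyme of the cycle proper is built from the catalytic subunit Idh3a and the subunits Idh3b and Idh3g. Idh3a (Entrez gene 67834) was at 5.56, 5.63 and 5.36 in wild-type and 6.08, 5.29 and 5.41 in Tet2-deficient arrays. Tet2-deficient replicate 1 was the highest of the 6 and the other two lay within or below the wild-type range, so that this array set the sign. The log2 change was 0.08 ± 0.20 (95% interval -0.38 to 0.53, adjusted p = 0.893) with all arrays and -0.17 without that replicate. The same array was also the highest for Idh3b (8.41, with 7.93 and 7.86 in the other Tet2-deficient arrays and 7.73 to 7.79 in wild-type ones). It was the highest for Idh3g as well, whose other Tet2-deficient arrays were at 7.62 and 7.49 and whose wild-type arrays ran from 6.81 to 7.57. Neither subunit passed the threshold (log2 change 0.30 ± 0.16, adjusted p = 0.391 for Idh3b, and 0.45 ± 0.21, adjusted p = 0.341 for Idh3g).

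Ogdh (Entrez gene 18293) encodes the decarboxylating E1 subunit of the complex that consumes 2-oxoglutarate. It was at 8.43, 8.42 and 8.49 in wild-type and 8.63, 8.45 and 8.46 in Tet2-deficient arrays. Apart from Tet2-deficient replicate 1 all arrays lay within a narrow range, and the log2 change of 0.06 ± 0.12 had a 95% interval of -0.20 to 0.32 (adjusted p = 0.837). The E2 subunit Dlst was at 7.33, 7.22 and 7.14 against 7.55, 7.40 and 7.38, a separation of the groups that did not pass (log2 change 0.21 ± 0.12, adjusted p = 0.426). Dld, the E3 subunit shared with pyruvate dehydrogenase, overlapped (0.16 ± 0.13, adjusted p = 0.595).

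Suclg1 (Entrez gene 56451) encodes the alpha subunit of succinyl-CoA ligase, which makes succinate and a nucleoside triphosphate and is common to both forms of the enzyme. It had the smallest p of the 9. Its level was 6.12, 6.70 and 6.48 in wild-type and 5.92, 5.87 and 5.94 in Tet2-deficient arrays. The Tet2-deficient arrays lay close together (SD 0.04) below a spread wild-type group (SD 0.29), whose replicate 1 was nearest to them. The log2 change was -0.53 ± 0.15, or 1.44-fold lower, with a 95% interval of -0.88 to -0.18 (adjusted p = 0.141 in the limma fit). The beta subunits, which set the nucleotide used, had positive changes: for Sucla2, of the ATP-forming enzyme, it was 0.19 ± 0.14 (adjusted p = 0.570), and for Suclg2, of the GTP-forming enzyme, 0.24 ± 0.22 (adjusted p = 0.646). The difference Sucla2 minus Suclg1, taken within each array and set to a wild-type mean of 0, was 0.47, -0.52 and 0.05 in wild-type and 0.74, 0.80 and 0.60 in Tet2-deficient arrays. It was higher by 0.71 in the Tet2-deficient group, which is a description with no test because the pair was chosen with its values known.

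Succinate dehydrogenase oxidises succinate and is also complex II of the respiratory chain. Its iron-sulfur subunit Sdhb was at 7.88, 7.92 and 7.82 in wild-type and 7.46 to 7.62 in Tet2-deficient arrays. The membrane anchor Sdhc was at 7.22, 7.40 and 7.37 against 7.14, 7.06 and 6.89. Both had groups that did not overlap and neither passed (log2 change -0.32 ± 0.11, adjusted p = 0.211, and -0.30 ± 0.12, adjusted p = 0.271). The flavoprotein subunit Sdha was close to 0 (0.00 ± 0.12 with a 95% interval of -0.26 to 0.27). For the anchor Sdhd the log2 change was -0.16 ± 0.12 (adjusted p = 0.579). Fumarate hydratase, encoded by Fh1 (Entrez gene 14194), makes malate. Fh1 was at 5.69, 5.76 and 5.72 in wild-type and 5.87, 5.68 and 5.73 in Tet2-deficient arrays. The wild-type range lay inside the Tet2-deficient one, and the log2 change of 0.04 ± 0.11 was the smallest of the 9 (95% interval -0.22 to 0.30, adjusted p = 0.905).

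**Figure D2:**
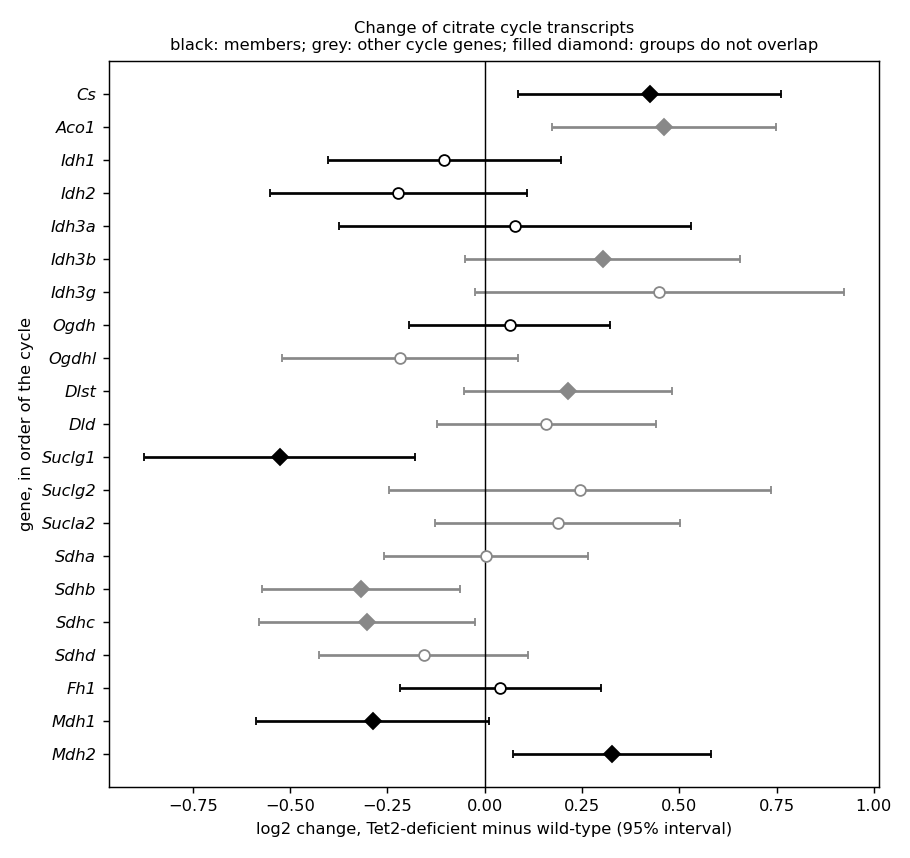
Log2 change (Tet2-deficient minus wild-type) with its 95% interval from the limma fit for 21 genes of the cycle in its order; black marks the 9 members and grey the other 12, and filled diamonds mark groups that did not overlap. Cs, Aco1 and Mdh2 have intervals above 0, Suclg1, Sdhb and Sdhc have intervals below 0, and no gene had an adjusted p under 0.05.

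Malate dehydrogenase exists in cytosol (Mdh1) and mitochondria (Mdh2), and both forms take part in the malate-aspartate shuttle, together with aspartate transaminases and carriers. Mdh1 was lower and Mdh2 higher in all 3 Tet2-deficient arrays. Mdh1 (Entrez gene 17449) was at 6.72, 6.69 and 6.94 in wild-type and 6.68, 6.41 and 6.41 in Tet2-deficient arrays. Tet2-deficient replicate 1 lay just below the lowest wild-type array and the other two lay well below it. The log2 change was -0.29 ± 0.13, or 1.22-fold lower (95% interval -0.59 to 0.01, adjusted p = 0.334). Mdh2 (Entrez gene 17448), which closes the cycle by making oxaloacetate, was at 7.93, 7.87 and 7.81 against 8.27, 8.17 and 8.14. All 3 Tet2-deficient arrays were above all wild-type ones with little spread in either group (SD 0.07 and 0.06). The log2 change was 0.33 ± 0.11, or 1.26-fold (95% interval 0.07 to 0.58, adjusted p = 0.198 in the limma fit). The difference Mdh2 minus Mdh1 within each array, set to a wild-type mean of 0, was 0.13, 0.09 and -0.22 in wild-type and 0.51, 0.69 and 0.65 in Tet2-deficient arrays. It was higher by 0.62 in the Tet2-deficient group, a description with no test, since the pair was picked after its values were seen. For the other pair of compartments, Idh2 minus Idh1, the difference was -0.12.

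The stretches before the start sites of Mdh1 and Mdh2 are shown because these forms of 1 enzyme stood on opposite sides of the wild-type range and because TET enzymes act on methylated CG pairs. They are the 250 bases upstream in RefSeq's GRCm38.p6 table, 5′ to 3′ on the gene's strand, at chr5:135778399-135778648 (plus strand) for Mdh2 and chr11:21571935-21572184 (minus strand) for Mdh1. Capitals mark the palindrome TCTCGCGAGA, which reads the same on both strands.
Mdh2: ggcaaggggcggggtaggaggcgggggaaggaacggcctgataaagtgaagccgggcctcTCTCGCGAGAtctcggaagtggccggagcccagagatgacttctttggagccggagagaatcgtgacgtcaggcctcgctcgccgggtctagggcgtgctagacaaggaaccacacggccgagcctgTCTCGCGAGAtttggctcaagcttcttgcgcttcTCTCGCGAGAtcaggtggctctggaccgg
Mdh1: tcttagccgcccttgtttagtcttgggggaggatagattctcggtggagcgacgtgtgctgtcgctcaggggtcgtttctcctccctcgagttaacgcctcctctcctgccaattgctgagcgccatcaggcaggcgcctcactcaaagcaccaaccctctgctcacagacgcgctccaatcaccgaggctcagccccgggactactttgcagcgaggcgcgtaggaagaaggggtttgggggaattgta

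The Mdh2 stretch held the palindrome 3 times, with first bases at -190, -63 and -29 from the start site, and the Mdh1 stretch held none. Of 32851 upstream stretches of this length, 128 (0.39%) held it and 2 held it at least 3 times. It was searched for after the Mdh2 sequence had been read. Among the 19 genes of the cycle with an entry in the table, Mdh2 alone held it. Stretches with the palindrome belonged to 108 tested genes, of which 0 rose and 0 fell (0.952% of all features passed). Their median log2 change was 0.06, beside -0.04 for all features, and 28.7% of them had groups that did not overlap, beside 22.0% of all features. CG pairs numbered 23 in the Mdh2 stretch, 17 in that of Mdh1, 13 in that of Cs and 15 in that of Suclg1. All 14 entries of the 8 members in the table, those with several start sites included, had 9 to 35 CG pairs, above the median of 6 over all stretches. The entries of the other cycle genes held 8 to 27 CG pairs, also above that median. The palindrome GCGCATGCGC, known from binding sites of NRF1, a regulator of many mitochondrial genes, was in 0.782% of all stretches and in none of the members' stretches. The half-site AAGGTCA of nuclear receptors, searched on both strands, was in 4.08% of them and in no member's. The E-box CACGTG, also a palindrome, was in 6.02% and, among members, only before start sites of Ogdh. No methylation or binding was measured, so these letters are a description.

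Array by array, the 9 members did not move as a block. Their mean deviation from the mean of the 6 arrays was -0.03, 0.04 and 0.02 in wild-type replicates 1, 2 and 3 and 0.17, -0.09 and -0.12 in the Tet2-deficient ones. Tet2-deficient replicate 1 was thus the highest and the other Tet2-deficient arrays the lowest, with wild-type arrays in between. Replicate 1 held the highest value for 5 of 9 members and for 11 of 21 cycle genes (52.4%), where it held the highest value of 17.3% of all features. Pairwise Pearson correlations of members over the 6 arrays, given as a description, ran from -0.86 for Suclg1 with Mdh2 to 0.92 for Idh3a with Fh1. Correlations over 6 arrays that fall into 2 groups hold the group difference as well as the spread within groups. By the same measure the named genes most like Suclg1 among 19568 were Ptges2 (r = 0.996), Dpy30 (0.996) and Hmga2-ps1 (0.994), and those most like the mean deviation of the members were Oxtr, Ap1s1 and Zfp960 (0.987 to 0.991). With 6 arrays such values are common: 78 genes were above 0.95 for Suclg1 and 47 for the mean.

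**Figure D3:**
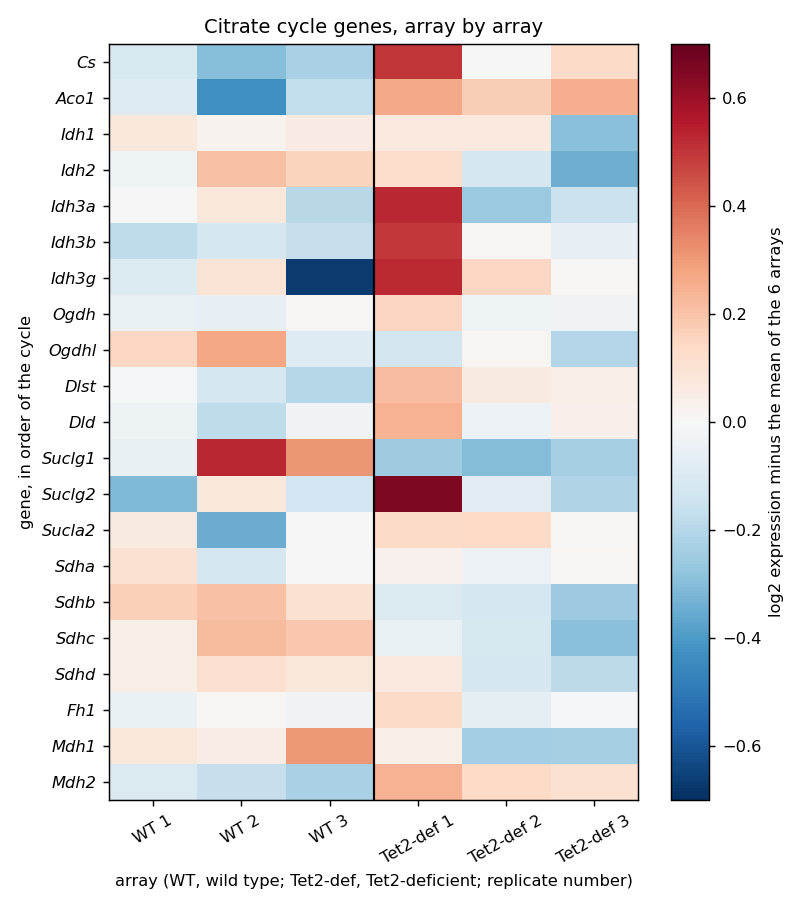
Log2 expression of 21 cycle genes (rows, in the order of the cycle) in the 6 arrays (columns), as the difference from the gene's mean over the arrays; red is above and blue below that mean. Tet2-deficient replicate 1 is the highest array for 11 of the 21 genes, among them Cs, Idh3a, Idh3b and Idh3g, whereas Suclg1, Sdhb, Sdhc and Mdh1 are lower in all 3 Tet2-deficient arrays.

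In the rest of the cycle, 0 of 12 measured genes rose or fell at an adjusted p of 0.05 in the limma fit (3 had an unadjusted p under 0.05, Aco1, Sdhb and Sdhc, where 16.0% of all features did). Groups did not overlap for 5 of 12 (41.7%), where they did not for 22.0% of all features, and the median log2 change was 0.17, beside -0.04. Removing a joint trend with gene span and level, over features with a span only, brought this median to 0.08 and leaving out 1 array brought it to 0.03 (Tet2-deficient replicate 1) or 0.08 (wild-type replicate 2). Pyruvate enters the cycle through pyruvate dehydrogenase, which kinases (Pdk) switch off and phosphatases (Pdp) switch on. Of 11 genes of this entry 8 lay above the array median in every array, and 0 of the 11 passed. A negative log2 change was seen for 9, where 14599 of all 25206 features had one. The median was -0.20, beside -0.04 for all features, and -0.18 with dim features left out. The 3 with the smallest p were Pdk1, a kinase induced by hypoxia (5.26, 5.11 and 5.19 in wild-type against 5.02, 4.85 and 4.36, log2 change -0.45 ± 0.17, adjusted p = 0.243), the phosphatase Pdp1 (-0.30 ± 0.13, adjusted p = 0.302) and the E1 beta subunit Pdhb (-0.23 ± 0.13, adjusted p = 0.463). Pdk1 and Pdp1, 2 of the 11, had an unadjusted limma p under 0.05, where 16.0% of all features did. Without Tet2-deficient replicate 3 the change of Pdk1 was -0.25.

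Of 12 enzymes that exchange 2-oxoglutarate with other pools, mainly amino acids, 0 passed. An unadjusted limma p under 0.05 was reached by 4, where 16.0% of all features had one. Among these 4, the transaminase Aadat was dim, above the array median in 0 arrays. Gpt2, the mitochondrial alanine transaminase, was at 5.20, 4.68 and 4.85 in wild-type and 3.93, 4.18 and 4.37 in Tet2-deficient arrays. Psat1, the serine pathway transaminase that releases 2-oxoglutarate from glutamate, was at 6.04, 5.94 and 6.02 against 7.16, 6.55 and 6.56. The groups of both were separate, in opposite directions (log2 change -0.75 ± 0.17, adjusted p = 0.0715, and 0.75 ± 0.17, adjusted p = 0.0732). Both passed when dim features were left out (0.0334 and 0.0338), with a trended and robust prior (0.0457 and 0.0330) and at a threshold of 0.1. Under the other 12 of 15 alternatives neither passed. Over the 15, adjusted p ran from 0.0334 to 0.209 for Gpt2 and from 0.0330 to 0.208 for Psat1. Without Tet2-deficient replicate 1 the log2 changes were -0.64 and 0.56. For the ornithine transaminase Oat the change was 0.38 ± 0.13 (adjusted p = 0.210). The median of the 12 was -0.02.

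Exits from the cycle had small changes: of 12 enzymes and carriers 0 passed, and the median log2 change was 0.01. An unadjusted limma p under 0.05 was reached by 0, against 16.0% of all features. Groups did not overlap for 0, against 22.0% of all features. Acod1, which turns aconitate into the inhibitor itaconate in activated macrophages, was at 11.8 in each wild-type array and at 11.8 to 11.9 in the Tet2-deficient ones (log2 change 0.05 ± 0.11, 95% interval -0.20 to 0.30). Acly, which splits exported citrate, had 0.00 ± 0.11 (95% interval -0.25 to 0.25). The smallest p among these 12 belonged to the malic enzyme Me1 (0.24, adjusted p = 0.586), the carrier Slc25a11, which exchanges 2-oxoglutarate for malate (0.17, adjusted p = 0.697) and the malic enzyme Me3 (0.18, adjusted p = 0.754). Both malic enzymes were dim: Me1 was at 2.54 to 3.31, above the array median in 0 arrays, and Me3 at 3.01 to 3.82, above it in 2. With 1 array left out, Me1 ran from 0.07 (without wild-type replicate 3) to 0.46 (without wild-type replicate 1). Me3 ran from 0.02 (without wild-type replicate 3) to 0.43 (without wild-type replicate 2). Slc25a11 was at -0.01 without Tet2-deficient replicate 1.

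Of 14 enzymes that use 2-oxoglutarate as cofactor 0 passed, and 3 had an unadjusted limma p under 0.05, where 16.0% of all features did. The median log2 change was 0.21 (0.08 with the span and level trend removed). The prolyl hydroxylase Egln3, which marks hypoxia-inducible factors for decay and is itself induced by them, was at 3.91, 3.18 and 3.43 in wild-type and 5.54, 4.55 and 4.54 in Tet2-deficient arrays. Its groups were far apart, at 1.37 ± 0.28 with an adjusted p = 0.0570, and it passed under 5 of 15 alternatives, the looser threshold of 0.1 among them (adjusted p 0.0178 to 0.192 over the 15). Egln3 was dim in part: it lay above the array median in 4 arrays and below it in wild-type replicates 2 and 3. The fit with dim features left out kept it by its mean over all 6 arrays. Hif1an, an asparagine hydroxylase of the same factors, had 0.38 ± 0.12 (adjusted p = 0.176) and the RNA demethylase Alkbh5 0.31 ± 0.14 (adjusted p = 0.309). General mitochondrial proteins gave a reference for the organelle: 0 of 13 passed and the median was -0.03. An unadjusted limma p under 0.05 was reached by 1, against 16.0% of all features. The import receptor Tomm70a had -0.34 ± 0.14 (adjusted p = 0.276), the channel Vdac1 -0.23 ± 0.12 (adjusted p = 0.416) and Tfam, a packaging factor of mitochondrial DNA, -0.29 ± 0.17 (adjusted p = 0.445), which was -0.11 without wild-type replicate 1.

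The 95% intervals of the main fit give a range for the change of each member taken singly, not for all 9 jointly. Across the 9 members these intervals lay between -0.88 and 0.76 on the log2 scale, within a 1.84-fold change in either direction. Other settings moved them: without wild-type replicate 1 the log2 change of Suclg1 was -0.68 ± 0.14. The smallest change among the 240 features that passed was 0.58. A change of the size seen for the members was thus near or under the smallest change called with 3 arrays per group. In simulated data 19.4% of genes changed by 0.5 and 97% of those changed by 1 were called. That simulation used independent normal noise and changed 67 genes at each of these sizes. In the data themselves 16.0% of features had an unadjusted limma p under 0.05, so the simulated shares need not hold for them. Given the width of the intervals, absence from the called features does not show equal levels.

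**Figure D4:**
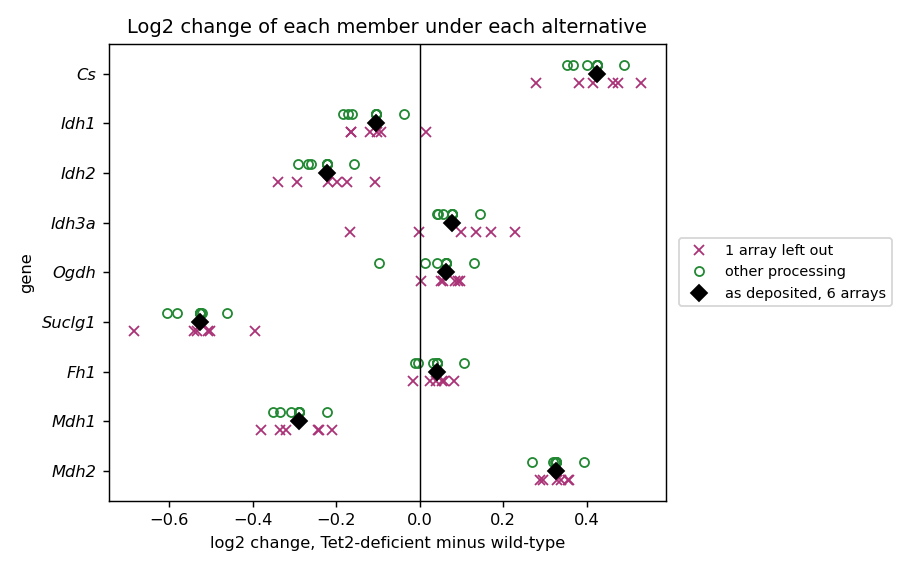
Log2 change of the 9 members as deposited with 6 arrays (black diamonds), with 1 array left out (crosses) and under other processing (open circles). Cs and Mdh2 stay above 0 and Idh2, Suclg1 and Mdh1 below 0 under all 15 alternatives; Idh1, Idh3a, Ogdh and Fh1 cross 0.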

How the data were processed

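Total RNA of 6 macrophage cultures was hybridised to 1 array each, per the labels. The log2 values were used as deposited. The authors made them with RMA (affy 1.36.1), per the submitters' processing notes. For array type, genome build and filters, the sources used here give nothing. RMA gives the arrays near-equal distributions (sorted values differ by at most 0.27), so a shift shared by every gene would be hidden, and log2 differences of dim features are understated. No level of 1 gene was compared with that of another, but levels were set against array medians and averaged over marker lists. Of 25206 features, 23185 had 1 symbol, 0 had several and 2021 had none in GEO's platform annotation. Of 156 listed genes 145 were matched. Any 2 arrays differed in at least 99.66% of features. The 3 cultures per group are biological replicates by their titles. The number of arrays limits precision.

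The genotype difference was fitted across the whole table with limma 3.58.1 (R 4.3.3; lmFit, eBayes, 5.31 prior degrees of freedom, two-sided) with Benjamini-Hochberg adjustment and a threshold of 0.05. The fit was tested on simulated data over 25206 features. Of those changed by 0.5, 1 and 2 it called 13 of 67, 65 of 67 and 66 of 66, and it also called 16 unchanged ones. Named genes were the 9 members, Tet2 and the 3 genes most correlated with a reference. Each pathway gene past the threshold or among the 3 smallest p of its list was named too. The other cycle subunits, Acod1, Acly, Adgre1, Cd68 and Dcn were picked with their values known. The members and lists were chosen with earlier results of these data known. The within-array pairs, the promoter palindrome and the removal of a trend with gene span and level (loess span 0.3) were added after seeing the data. Alternatives were other scaling between arrays (array medians, cyclic loess), dim features left out, a replicate block, a trended and robust prior, array weights, each array left out, a threshold of 0.1, and features with a symbol only. Same-numbered arrays did not deviate together throughout (correlations 0.08, 0.19 and 0.02), so the replicate numbers were not taken as pairs.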

Additional observations from a re-analysis of the deposited data

How the results depend on the processing

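The count of members past the threshold was 0 under all 15 alternatives, and adjusted p for the 9 ranged from 0.0685 (Suclg1, dim features left out) to 1.000. Cs, Idh2, Suclg1, Mdh1 and Mdh2 kept their direction under all 15. The log2 change of Idh1 was -0.16 to 0.015, that of Idh3a -0.17 to 0.23, that of Fh1 -0.016 to 0.082 and that of Slc25a11 -0.010 to 0.27 with 1 array left out. Fh1 was at -0.0039 with cyclic loess and -0.013 with the trend on gene span and level removed, where Ogdh was at -0.10. Over all features the count of 240 became 846 without dim features, 814 under the trended and robust prior, 498 with array weights, 791 at a threshold of 0.1 and 11 to 155 with 1 array left out (155, 67 and 25 without wild-type replicate 1, 2 or 3, and 27, 114 and 11 without Tet2-deficient replicate 1, 2 or 3). Among enzymes that exchange 2-oxoglutarate 2 genes passed at a threshold of 0.1, under the trended and robust prior and without dim features, namely Gpt2 and Psat1 (log2 change -0.75 and 0.75 each time). Among 2-oxoglutarate-dependent enzymes 1 passed under these 3 settings, Egln3 (1.37), and with array weights (1.28). With the replicate block, which gave 230 features and 0 members, Egln3 passed too (1 gene of its list, 1.37, adjusted p = 0.0178); of the wild-type arrays, replicates 1 and 2 but not 3 correlated best with their own number. The median of other cycle genes was 0.033 to 0.21 with 1 array left out and 0.084 without the span and level trend, and that of the dioxygenases was 0.077 without it. For general mitochondrial proteins the median was 0.040 with arrays centred on their medians, -0.083 with cyclic loess and -0.088 to -0.0025 with 1 array left out. The cause of these differences was not tested. Averaging several features of a gene was not run, since each gene had 1.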
